A study of Mus musculus with 10 samples.

Results

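The genes described here encode matrix metalloproteases and their tissue inhibitors, the TIMPs, in the mouse lung. They were 10 genes chosen by name: Mmp2, Mmp3, Mmp11, Mmp12, Mmp14, Mmp15, Mmp19, Timp1, Timp2 and Timp3. Every probe set whose only gene symbol in the platform annotation was one of these counted, which gave 21 probe sets of 9 genes, out of 45101 probe sets and 18193 singly named genes on the array. No probe set was named Mmp15 alone, and that gene's expression was not analysed here.

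Each of 10 Affymetrix Mouse430_2 arrays read the RNA of the whole lung of 1 mouse, and all mice were adult females of the inbred strain C57BL/6. The arsenic group was 5 mice that drank water with 50 ppm arsenic for 12 weeks from the age of 8 weeks. The control group was 5 mice that drank distilled deionized water, recorded as 0 ppm, over the same 12 weeks. The labels record no genetic modification in either group. They disagree on the arsenic compound, naming arsenate in one place and arsenite in another. The design holds 1 strain, 1 sex, 1 dose and 1 time point. Sample titles carry the number 20 in all arsenic animals and 4 in all controls, with no stated meaning, so anything that number stands for cannot be told apart from the exposure.

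Matrix metalloproteases are zinc-dependent enzymes that cut collagens, elastin, laminins and other proteins outside the cell. Most are made as inactive precursors and become active when a propeptide is removed. TIMPs bind the active site and block it, and the balance of protease and inhibitor sets how fast matrix is turned over. In the lung this system is known for its part in alveolar growth, wound repair, emphysema and fibrosis. Mmp2, a gelatinase, is activated on the cell surface by the membrane protease Mmp14 with Timp2 as a bridge, so these genes are described one after the other below.

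None of the genes passed the test for a difference between arsenic and control lungs. All levels are the authors' log2 values after GCRMA normalization, which are compared between animals and not between probe sets. Of the 21 probe sets, 18 probe sets of 8 genes were bright enough to be tested, each on all 10 arrays, and 0 of the 18 had an adjusted p under 0.05 in limma. Over the whole array 99 of 22495 probe sets passed, or 0.44%, with 0.262% higher and 0.178% lower in arsenic lungs (59 and 40 probe sets), so a count of 0 among 18 lies near that background. The count also stayed at 0 with 1 probe set per gene, where 0.477% of 11332 genes passed, and without the filter on dim probe sets, where 0.0422% of 45037 probe sets passed. The balance of calls over the array was not stable, with 33 higher and 64 lower without arsenic lung 4. At an unadjusted p under 0.05, 2 of the 18 (11.1%) were called, both of Mmp2, against 17.2% of all tested probe sets; both were lower in arsenic lungs, as were 8.79% of all. Adjusted p-values in limma ran from 0.139 to 0.941.

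Signed differences, always arsenic minus control on the log2 scale, were split 9 positive to 9 negative, with a median of 0.0062 against 0.026 over all tested probe sets. Metalloprotease probe sets were negative in 6 of 8, with a median of -0.13. TIMP probe sets were positive in 7 of 10, with a median of 0.04. Probe sets of 1 gene are not independent, and Mmp2 had 2 and Mmp14 3 of those 8. Timp2 had 5 and Timp3 4 of those 10. By gene, Mmp2, Mmp11 and Mmp14 were negative and Mmp3 and Mmp19 positive, and Timp1, with 1 probe set, was negative. Over all tested probe sets 55.3% were positive. The median size of the difference, sign left out, was 0.107 for these 18 probe sets and 0.141 for all. Precision varied by gene, with narrow 95% intervals for Timp2 and Timp3 and wide ones for Mmp19 and Timp1.

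**Figure D1:**
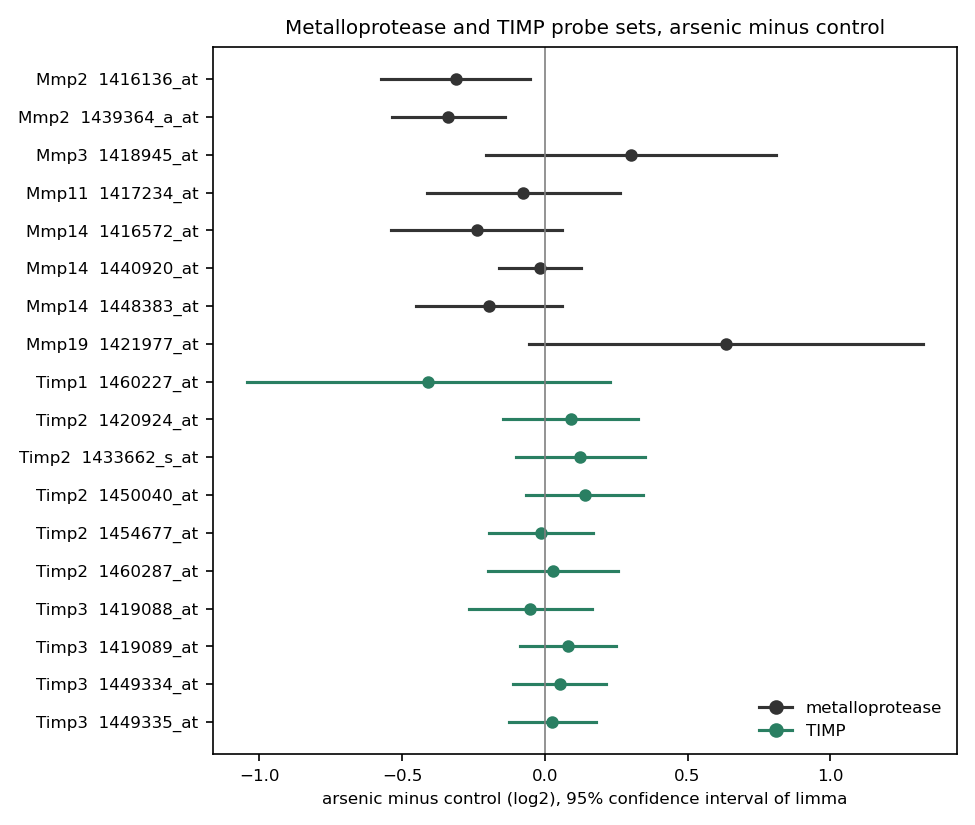
Difference between 5 arsenic and 5 control lungs (log2, x axis) for each of the 18 tested probe sets, with the 95% confidence interval of limma as a line and a vertical line at 0. The intervals of both Mmp2 probe sets lie wholly below 0 before adjustment for multiple tests, and the widest belong to Mmp19 and Timp1.

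The arrays correlated with each other at 0.990 to 0.997, and array medians lay between 4.11 and 4.26. Lung identity was checked with marker genes: alveolar type 2 markers averaged 13.26 to 13.51 in arsenic lungs and 13.43 to 13.54 in control lungs. Alveolar type 1 markers averaged 13.50 to 13.71 in arsenic lungs and 13.47 to 13.65 in control lungs. Kidney markers were also seen: 7 of their 12 genes passed the filter on dim probe sets, and their mean was 7.80 to 9.85 in arsenic lungs against 5.14 to 8.78 in control lungs. Arsenic lung 4 and control lung 4 had the highest kidney level of their groups. For differences over 0.3 that a fit with the kidney level as a covariate moved by more than 1.5 times or turned, that value is given below.

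Mmp2, a gelatinase that degrades basement membrane collagen and denatured collagen, was lower in arsenic lungs on both of its probe sets, without passing the adjusted threshold. On probe set 1439364_a_at it read 8.59, 8.45, 8.53, 8.64 and 8.55 in arsenic lungs 1 to 5, against 8.70, 8.99, 8.93, 8.75 and 9.09 in control lungs 1 to 5. Every arsenic lung lay below every control lung. No other probe set among the 18 separated the groups, which makes 5.56%, against 3.86% of all tested probe sets and 1.68% with the arsenic lungs below. The means were 8.55 ± 0.070 in arsenic and 8.89 ± 0.16 in control lungs (SD, n = 5 each), a difference of -0.34 (SE 0.089, 95% interval -0.53 to -0.14), or 1.26-fold lower. An exact two-sided permutation test gave p = 0.00794, the smallest that 252 splits of 5 against 5 can give. Any probe set whose groups do not overlap gives that value, and it is not adjusted for the 18 probe sets. The adjusted p in limma was 0.139, and it stayed between 0.104 and 0.312 under all the settings tried.

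Mmp2 probe set 1416136_at read 8.46, 8.16, 8.56, 8.44 and 8.48 in arsenic lungs, against 8.51, 8.90, 8.67, 8.56 and 9.02 in control lungs. The groups overlapped by a single animal: 4 of 5 arsenic lungs lay below all controls, and arsenic lung 3 lay above control lung 1. The difference was -0.31 (SE 0.12, 95% interval -0.57 to -0.05), or 1.24-fold lower, with an exact permutation p of 0.0159 and an adjusted p in limma of 0.230. In whole lung RNA, fewer cells of a type and less RNA per cell cannot be told apart. Fibroblasts are a known source of Mmp2, and of 11 fibroblast marker genes, all tested on 19 probe sets, 0 passed in either direction. Their mean lay at 9.55 to 9.76 in arsenic lungs and 9.63 to 9.86 in control lungs, with 13 of 19 differences negative and a median of -0.069. The part of fibroblast number in the Mmp2 difference was not tested.

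**Figure D2:**
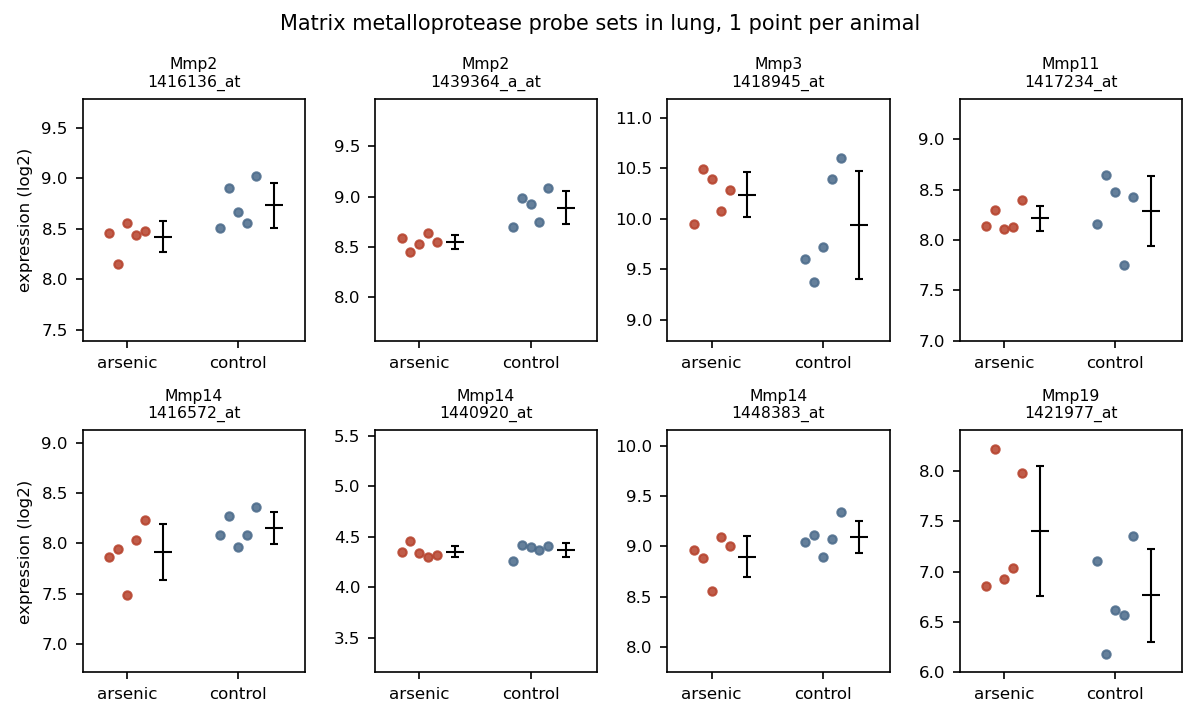
Expression (log2, y axis, all panels spanning the same width) of the 8 tested metalloprotease probe sets in arsenic (left) and control (right) lungs; points are animals 1 to 5 from left to right, with mean ± SD beside them. Mmp2 1439364_a_at is the panel in which the groups do not overlap, while Mmp3 and Mmp19 scatter widely within a group.

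Mmp14, the membrane-bound collagenase that activates pro-Mmp2, had negative differences on its 3 tested probe sets, none past the adjusted threshold. Its probe set 1416572_at read 7.86, 7.94, 7.48, 8.03 and 8.23 in arsenic lungs, against 8.08, 8.27, 7.97, 8.08 and 8.36 in control lungs. Arsenic lung 3 was the lowest of the 10, and the groups overlapped. The difference was -0.24 (SE 0.14, 95% interval -0.54 to 0.06), with an adjusted p in limma of 0.377. Without arsenic lung 3 it came to -0.13, the largest shift from leaving out any 1 array.

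The second Mmp14 probe set, 1448383_at, was built on the same mRNA record. It read 8.96, 8.88, 8.56, 9.09 and 9.003 in arsenic lungs, against 9.04, 9.11, 8.90, 9.08 and 9.34 in control lungs. Again arsenic lung 3 was lowest, and the difference was -0.19 (SE 0.12, 95% interval -0.45 to 0.06; adjusted p 0.396 in limma). Without arsenic lung 3 that difference was -0.11. The third probe set, 1440920_at, lay barely above the filter's cut-off of 4.20, at 4.35 ± 0.059 in arsenic and 4.37 ± 0.067 in control lungs (SD, n = 5 each), where these arrays resolve little.

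Timp2, an inhibitor of most metalloproteases and also the bridge in Mmp2 activation, was measured by 6 probe sets, of which 5 were tested. On probe set 1450040_at it read 11.05, 11.20, 11.03, 11.39 and 11.27 in arsenic lungs, against 10.98, 11.23, 11.11, 10.92 and 11.01 in control lungs. Arsenic lungs 4 and 5 were above all controls and the other 3 lay among them. That gave the furthest difference of the 5, 0.14 (SE 0.093, 95% interval -0.07 to 0.35), with an adjusted p in limma of 0.446. Without arsenic lung 4 it was 0.089. The other 4 tested probe sets differed by -0.014 to 0.12, and 4 of the 5 were positive. The 0.12 of probe set 1433662_s_at was 0.057 without arsenic lung 4. Probe set 1454677_at, the negative one, read 13.68, 13.73, 13.81, 13.88 and 13.95 in arsenic lungs, against 13.74, 13.98, 13.86, 13.70 and 13.83 in control lungs. The sixth, 1437081_at, exceeded the cut-off on 0 arrays, with means of 2.58 ± 0.022 in arsenic lungs and 2.61 ± 0.028 in control lungs (SD, n = 5 each), and is not read as a level of Timp2.

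Timp3, the TIMP that stays bound to the matrix and also blocks ADAM17, had 4 probe sets, all tested and all drawn from 1 sequence record. Probe set 1449335_at read 13.14, 13.09, 13.16, 13.24 and 13.18 in arsenic lungs, against 13.12, 13.19, 13.26, 13.05 and 13.06 in control lungs. The groups overlapped fully, with means of 13.16 ± 0.054 in arsenic and 13.13 ± 0.089 in control lungs (SD, n = 5 each). The difference was 0.026 (SE 0.069, 95% interval -0.13 to 0.18; adjusted p 0.858 in limma). Across the 4 probe sets it ran from -0.050 to 0.082.

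These 9 tested Timp2 and Timp3 probe sets allowed narrow limits. Their SD within a group was 0.0544 to 0.199, and their 95% intervals stayed between -0.26 and 0.35. Single probe sets therefore left room for Timp2 or Timp3 signal up to 1.27-fold higher or 1.20-fold lower in arsenic lungs, before any compression of the signal by the normalization. The probe sets of 1 gene share their samples and part of their target, so they are not replicates.

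**Figure D3:**
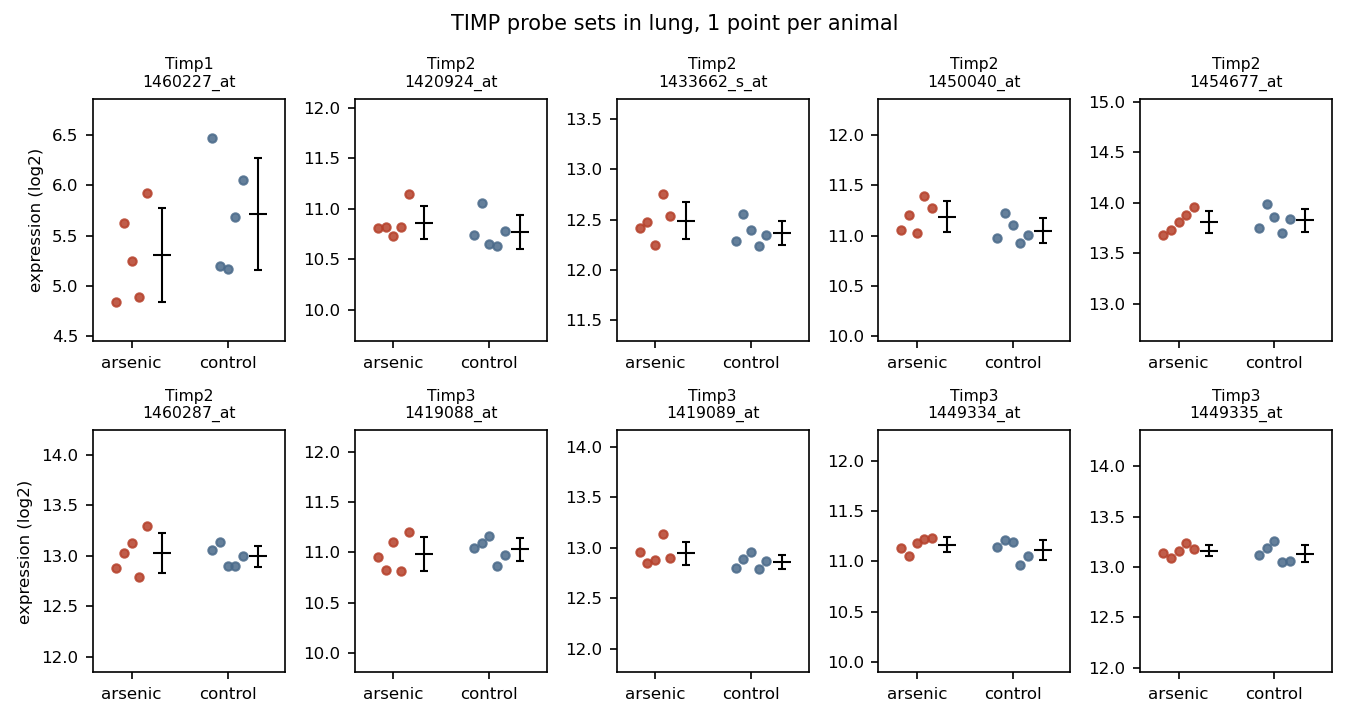
Expression (log2, y axis, all panels spanning the same width) of the 10 tested TIMP probe sets in arsenic (left) and control (right) lungs; points are animals 1 to 5 from left to right, with mean ± SD beside them. Timp1 spreads over more than a log2 unit in each group, while the 9 Timp2 and Timp3 panels stay within narrow bands.

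Timp1, the inducible and secreted inhibitor, behaved otherwise. It read 4.85, 5.63, 5.24, 4.89 and 5.92 in arsenic lungs, against 6.47, 5.20, 5.17, 5.68 and 6.05 in control lungs (probe set 1460227_at). Arsenic lungs 1 and 4 lay below all controls and control lung 1 above all others, with the rest mixed. The means were 5.31 ± 0.47 in arsenic and 5.71 ± 0.56 in control lungs (SD, n = 5 each), a difference of -0.41 (SE 0.29, 95% interval -1.04 to 0.23; adjusted p 0.467 in limma). Without control lung 1 the difference was -0.22, and with the kidney level as a covariate it turned to 0.027 (adjusted p 0.963 in limma).

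Promoter sequence was available for 8 of the 10 genes, and 4 windows are shown here as examples of a match close to the start site, chosen after the matches were seen. GC-box matches close to the start were also found in Mmp11, Mmp14 and Timp1, which are not printed, so the capitals do not divide proteases from inhibitors. The windows come from RefSeq (GRCm38.p6). Each runs from 100 bases before the annotated transcription start to the first 50 bases after it, read 5′ to 3′ on the gene's strand. Capitals mark a TGANTCA match, the core of sites bound by the stress-responsive factor AP-1, in Mmp3 and Mmp12, and a GGGCGG match on either strand, the GC box bound by Sp1, in Timp2 and Timp3.
Mmp3, chr9:7445722-7445871, plus strand: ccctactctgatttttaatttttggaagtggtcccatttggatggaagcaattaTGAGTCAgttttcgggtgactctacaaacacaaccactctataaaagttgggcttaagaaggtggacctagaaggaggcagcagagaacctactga
Mmp12, second start, chr9:7347274-7347423, plus strand: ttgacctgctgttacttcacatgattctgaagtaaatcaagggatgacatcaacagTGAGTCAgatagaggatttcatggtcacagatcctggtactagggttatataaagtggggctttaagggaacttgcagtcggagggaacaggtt
Timp2, chr11:118355362-118355511, minus strand: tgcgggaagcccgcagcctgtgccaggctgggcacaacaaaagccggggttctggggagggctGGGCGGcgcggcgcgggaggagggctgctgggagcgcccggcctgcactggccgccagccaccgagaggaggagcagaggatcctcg
Timp3, chr10:86300312-86300461, plus strand: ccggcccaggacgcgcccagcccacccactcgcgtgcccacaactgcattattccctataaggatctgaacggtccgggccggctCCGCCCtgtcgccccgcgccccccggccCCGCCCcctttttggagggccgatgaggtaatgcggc

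The AP-1 core stood at -46 from the start in Mmp3 and at -44 in Mmp12. Searched on both strands in windows of 250 bases before to 50 bases after the start, it was in 2 of the 9 promoters of these genes and in 7.81% of 32851 mouse promoters. The TATA box letters TATAAA were in the promoters of the same 2 genes, and in 13.6% of all. They began at -7 in Mmp3 and at 5, past the annotated start, in Mmp12. GGGCGG was in the promoters of 6 genes, Mmp11, Mmp14, Mmp15, Timp1, Timp2 and Timp3, and in 35.7% of all. Mmp2 and Mmp19 were not in the promoter table. A match is a description of the letters only, and no binding was measured.

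Mmp3, stromelysin 1 in the usual naming, cuts a broad range of matrix proteins and activates other metalloproteases. It read 9.95, 10.50, 10.39, 10.08 and 10.28 in arsenic lungs, against 9.60, 9.37, 9.72, 10.39 and 10.60 in control lungs (probe set 1418945_at). Control lungs 1 to 3 lay below all arsenic lungs, and control lungs 4 and 5 lay among or above them. The means were 10.24 ± 0.22 in arsenic and 9.94 ± 0.53 in control lungs (SD, n = 5 each), so the difference of 0.30 (SE 0.23, 95% interval -0.21 to 0.81) was within the spread of the controls. The adjusted p in limma was 0.502. The difference was 0.16 without control lung 2, 0.47 without control lung 5 and 0.19 with the kidney level as a covariate.

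Mmp12, the elastase that macrophages make and that is known from smoke-induced emphysema in mice, was at the filter's edge. It read 4.19, 4.29, 4.09, 4.13 and 4.40 in arsenic lungs, against 4.51, 4.17, 4.13, 4.08 and 4.20 in control lungs (probe set 1449153_at). Only 4 of 10 arrays exceeded the cut-off, so it was not tested in the main comparison. Tested without the filter, it differed by 0.0053 (SE 0.0895; adjusted p 0.975 in limma). Alveolar macrophage markers were bright by comparison with the cut-off, at 9.22 to 9.64 in arsenic and 9.02 to 9.59 in control lungs. Of those markers 0 of 13 tested probe sets passed in either direction, with 9 differences positive and 4 negative and a median of 0.18.

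Mmp11, which is unusual in being activated inside the cell by furin, read 8.14, 8.30, 8.11, 8.13 and 8.39 in arsenic lungs, against 8.15, 8.64, 8.48, 7.76 and 8.42 in control lungs (probe set 1417234_at). The arsenic values all lay inside the range of the controls. The difference was -0.075 (SE 0.15, 95% interval -0.41 to 0.26), with an adjusted p in limma of 0.814.

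Mmp19, a secreted protease of basement membrane components, had the largest difference of the family and also the largest spread. Probe set 1421977_at read 6.85, 8.21, 6.93, 7.03 and 7.98 in arsenic lungs, against 7.11, 6.19, 6.62, 6.57 and 7.35 in control lungs. Arsenic lungs 2 and 5 were above all controls, and the other 3 lay between the second and the third highest control. The means were 7.40 ± 0.64 in arsenic and 6.77 ± 0.46 in control lungs (SD, n = 5 each), a difference of 0.64 (SE 0.31, 95% interval -0.05 to 1.32), or 1.55-fold. An exact two-sided permutation test gave p = 0.135, and the adjusted p in limma was 0.322.

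The Mmp19 difference depended on single animals. Without arsenic lung 2 it was 0.43, and without control lung 5 it was 0.78. With the kidney level as a covariate it was 0.96 (adjusted p 0.195 in limma). The dim second probe set, 1421976_at, exceeded the cut-off on 3 arrays and was not tested in the main comparison. It read 3.80, 5.20, 4.16, 3.60 and 4.85 in arsenic lungs, against 3.90, 3.85, 3.80, 3.86 and 4.52 in control lungs. The same arsenic lungs, 2 and 5, were high on both probe sets, and control lung 5 was the highest control on both.

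**Figure D4:**
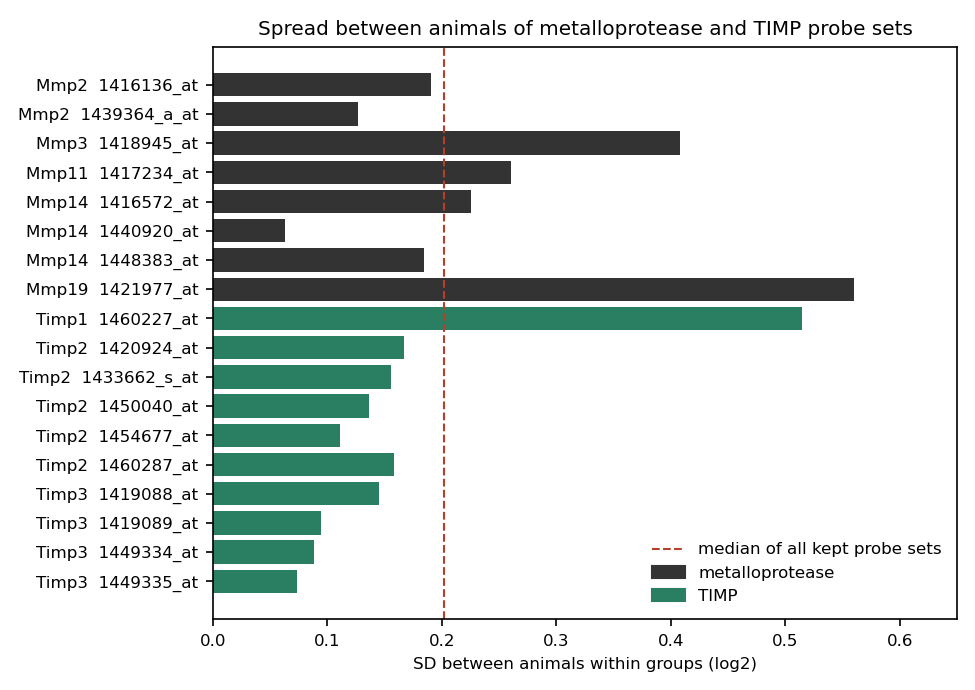
Pooled SD between animals within groups (log2, x axis) for each of the 18 tested probe sets, with the median over all tested probe sets as a dashed line. Mmp19, Timp1 and Mmp3 exceed it most, at 0.560, 0.515 and 0.408 against 0.202, while all Timp2 and Timp3 bars stay under it. The shortest bar is that of Mmp14 1440920_at, a dim probe set.

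The spread of values within a group thus differed between probe sets of the family. Each animal had 1 array, so variation between animals and measurement noise cannot be told apart. The percentiles below were not matched for signal level. Timp1 averaged 5.31 in arsenic and 5.71 in control lungs, against the cut-off of 4.20, and Mmp3 averaged 10.24 and 9.94. The pooled SD of Mmp19 was 0.560, at the 96.2 percentile of all tested probe sets, and that of Timp1 was 0.515, at the 94.6 percentile. Mmp3 followed at 0.408, the 88.3 percentile. At the other end Mmp14 probe set 1440920_at, which lay barely above the filter's cut-off, had 0.0627, at the 2.48 percentile. Timp3 probe set 1449335_at came next with 0.0737, at the 3.96 percentile. Mmp2 probe set 1439364_a_at, at 0.126, was at the 19.3 percentile, so its small difference stood against a small spread.

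Mmp2 was next set beside genes of matrix proteins. The list of matrix substrates held 20 genes, of which 16 were tested on 28 probe sets, and 0 passed in either direction; 14 differences were positive and 14 negative, with a median of 0.018. Those with the smallest p-values were Col3a1 and Col1a2, fibrillar collagens of the tensile fibres of the alveolar wall, and fibronectin. Col3a1 probe set 1427883_a_at read 12.70, 12.59, 12.84, 12.73 and 12.84 in arsenic lungs, against 13.16, 12.95, 13.11, 13.19 and 13.24 in control lungs. The groups did not overlap, and the difference was -0.39 (SE 0.081; adjusted p 0.0807 in limma). It passed, at an adjusted p of 0.0327, only when limma's variance prior followed the signal level, and reached 0.218 in the least favourable setting.

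The second Col3a1 probe set, 1427884_at, also separated the groups, with 8.18 ± 0.25 in arsenic and 8.74 ± 0.073 in control lungs (SD, n = 5 each; difference -0.55, adjusted p 0.0821 in limma). Col1a2 probe set 1423110_at read 9.21, 9.29, 9.38, 9.45 and 9.36 in arsenic lungs, against 9.49, 9.47, 9.62, 9.60 and 9.71 in control lungs. Those groups did not overlap either, with a difference of -0.24 and an adjusted p in limma of 0.181. On the other Col1a2 probe set, 1450857_a_at, the groups overlapped, with a difference of -0.28 and an adjusted p in limma of 0.209. Over all tested probe sets, 3.86% separated the groups, and 1.68% did so with the arsenic lungs below. Fibronectin, Fn1, gave unlike answers on its probe sets, -0.59 on 1437218_at (adjusted p 0.242 in limma) and 0.091 on 1426642_at. Col1a1 differed by -0.24 and -0.083, with overlapping groups. Col5a1, also a fibrillar collagen, differed by 0.071 and -0.030 (adjusted p 0.663 and 0.906 in limma). The basement membrane collagens had positive differences, Col4a1 of 0.21 and 0.23 and Col4a2 of 0.24 (adjusted p 0.379, 0.448 and 0.356 in limma).

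**Figure D5:**
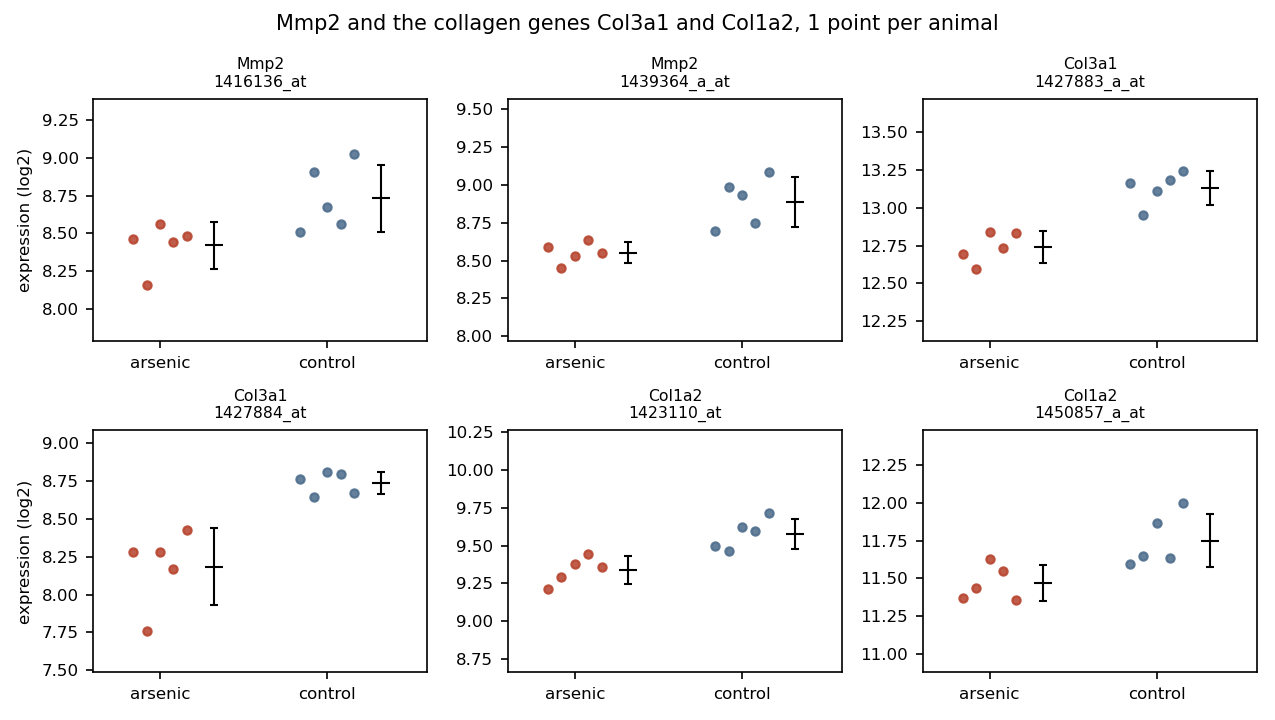
Expression (log2, y axis, all panels spanning the same width) of the Mmp2, Col3a1 and Col1a2 probe sets in arsenic (left) and control (right) lungs; points are animals 1 to 5 from left to right, with mean ± SD beside them. Arsenic lungs lie wholly below controls for Mmp2 1439364_a_at, both Col3a1 probe sets and Col1a2 1423110_at, none of which passed the adjusted threshold. Of the collagens not drawn, Col4a1 and Col4a2 differed in the other direction, and Col5a1 differed by 0.071 and -0.030.

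The next list held 18 genes: activating proteases, the plasmin system, and related inhibitors and membrane proteins. Cav1, Bsg and Plaur, for example, are not proteases. Of the 18 genes, 9 were tested on 13 probe sets, and 0 probe sets passed the threshold. Differences were positive in 11 of 13, against 55.3% of all tested probe sets, with a median of 0.13 against 0.026 for all. Ctsl, a lysosomal cysteine protease, read 13.07, 13.16, 13.05, 13.05 and 13.21 in arsenic lungs, against 12.56, 12.66, 12.72, 13.08 and 12.86 in control lungs (probe set 1451310_a_at). Only control lung 4 reached the arsenic range, and the difference was 0.33 (SE 0.10; adjusted p 0.168 in limma). Furin, the convertase that activates Mmp11 and Mmp14, differed by 0.22 (SE 0.097; adjusted p 0.271 in limma). Ctsb differed by 0.26 on probe set 1417491_at and by -0.0071 to 0.11 on its other 3.

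Among the metalloproteases outside the named genes, 3 of 16 listed genes were bright enough to test, on 5 probe sets, and 0 passed. Mmp9, the neutrophil gelatinase, read 7.59, 8.15, 7.55, 7.56 and 7.54 in arsenic lungs, against 7.56, 10.07, 8.51, 7.34 and 7.36 in control lungs (probe set 1416298_at). Control lung 2 stood far above the rest, and the difference was -0.49 (SE 0.47; adjusted p 0.594 in limma), or -0.015 without that lung. The second Mmp9 probe set, 1448291_at, differed by -0.18 (SE 0.67, adjusted p 0.904 in limma), with control lung 2 also highest, at 8.83. Mmp8, the neutrophil collagenase, read 6.47, 7.66, 6.17, 7.32 and 6.85 in arsenic lungs, against 5.35, 8.88, 6.77, 6.14 and 5.80 in control lungs, and control lung 2 was again the highest. Its difference was 0.31 (adjusted p 0.803 in limma), 0.88 without control lung 2 and -0.052 with the kidney level as a covariate. Control lung 2 also had the highest mean of neutrophil markers, 10.50, against 8.89 to 10.09 in arsenic lungs and 9.31 to 10.09 in the other controls. S100a8, S100a9, Csf3r and Cxcr2 were each highest in that lung. Ltf, the most variable of these markers, went the other way, at 7.25 against 9.81 to 12.97 in the other controls. The part of neutrophil number in these values was not tested. Mmp23 differed by 0.12 on probe set 1417281_a_at and by 0.051 on 1417282_at (adjusted p 0.706 and 0.891 in limma).

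Of the inhibitors other than Timp1 to Timp3, 3 of 5 listed genes were tested and 0 passed. Reck, a membrane-anchored inhibitor of Mmp2, Mmp9 and Mmp14, averaged 11.50 ± 0.16 in arsenic and 11.38 ± 0.11 in control lungs (SD, n = 5 each), a difference of 0.11 with an adjusted p in limma of 0.538, or 0.064 without arsenic lung 4 and 0.038 with the kidney level as a covariate. Timp4 averaged 6.995 ± 0.89 in arsenic and 6.60 ± 0.75 in control lungs (SD, n = 5 each), a difference of 0.39 with an adjusted p in limma of 0.663, and it ran from 0.11 without arsenic lung 3 to 0.70 without arsenic lung 5. Tfpi2 differed by -0.065 (adjusted p 0.872 in limma).

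One related protease did fall. Adamts1, a secreted aggrecan- and versican-cutting protease that TIMP3 can inhibit, read 9.08, 8.87, 8.88, 9.25 and 9.07 in arsenic lungs, against 10.11, 10.54, 10.08, 10.24 and 10.82 in control lungs (probe set 1450716_at). All arsenic lungs lay below all controls by a wide gap, where 1.68% of all tested probe sets had the arsenic lungs below. The difference was -1.33 (SE 0.15, 95% interval -1.65 to -0.999), or 2.51-fold lower, with an adjusted p in limma of 0.0117. The call held when any 1 array was left out. It ended with the kidney level as a covariate (difference -1.39, adjusted p 0.0594 in limma) and with a replicate block (adjusted p 0.0910 in limma). It was the 1 call among 17 tested probe sets of 8 ADAM and ADAMTS genes, against 0.44% of all tested probe sets. Of the 17, 13 had negative differences, with a median of -0.18. Over all tested probe sets 55.3% were positive, with a median of 0.026. Adam10, Adam17, Adam19 and Adamts5 each gave several of the negative ones, so these are not independent, and the positive ones were all of Adam15. Adam17, the sheddase that Timp3 blocks, differed by -0.25 on probe set 1421859_at (adjusted p 0.366 in limma), -0.16 without arsenic lung 2 and -0.39 with the kidney level as a covariate. Adamts5 differed by -0.58 on 1422561_at (adjusted p 0.330 in limma), and Adam10 by -0.44 on 1450105_at (adjusted p 0.370 in limma), or -0.23 without arsenic lung 2.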

How the data were processed

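Per the labels' protocols, lung RNA was isolated with Trizol and Qiagen clean-up and labelled with biotin. The authors' deposited values are log2 signals for 45101 probe sets, made with GCRMA per the submitters' processing notes; its version is not given in the sources used here. GCRMA draws dim probe sets towards a floor, so their differences come out too small. The platform annotation gave 1 symbol to 34958 probe sets, several to 932 and none to 9211. Levels of different probe sets were not compared.

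Probe sets above the table's median, 4.20, on at least 5 arrays were kept (22495, without 64 control probe sets) and tested singly in R 4.3.3 with limma 3.58.1 (lmFit, eBayes), 5 arsenic against 5 control, with no covariate. Benjamini-Hochberg adjustment ran over all of them, with a threshold of 0.05. The number of arrays limits the precision. Replicates were separate animals. The treatment field of control replicate 4 gives no dose; its title gives 0 ppm. The script was tested on simulated data with 50 differences of each size. It called 0 of those of 0.3, 21 of those of 0.6, 33 of those of 1 and 47 of those of 2. Differences near 0.3, such as those of Mmp2, could thus go uncalled. Alternatives were other filters, scalings, variance priors, array weights, a replicate block, the kidney level, and leaving out arrays.

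All probe sets of the chosen genes are described. Of each other gene list, genes past the threshold and up to 3 with the smallest p are named. Genes and lists were chosen with earlier results of these data known.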

Additional observations from a re-analysis of the deposited data

Results flagged for a closer look

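Among 104 groups of 5 lungs checked for a single animal apart from the others, 7 had one, and chance gives about 1 in 20. Mmp2 probe set 1416136_at was low in arsenic lung 2, at 8.16 against 8.44 to 8.56 in the other arsenic lungs. Mmp14 probe set 1440920_at was low in control lung 1, at 4.26 against 4.37 to 4.42 in the other controls, near the filter's cut-off. The dim Mmp19 probe set 1421976_at was high in control lung 5, at 4.52 against 3.80 to 3.90 in the other controls. Timp2 probe set 1420924_at was high in arsenic lung 5, at 11.15 against 10.73 to 10.82 in the other arsenic lungs. The dim 1437081_at, which is not read as a level of Timp2, was low in that lung, at 2.55 against 2.59 to 2.60. Mmp9 probe set 1416298_at was high in arsenic lung 2, at 8.15 against 7.54 to 7.59 in the other arsenic lungs. The mean of the other matrix metalloproteases was high in the same lung, at 7.18 against 6.68 to 6.82 in the other arsenic lungs.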

How the results depend on the processing

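Under every setting 0 probe sets of the metalloprotease and TIMP genes passed in limma, and their smallest adjusted p in any of them was 0.104. Of 364 fits of these probe sets under other settings, 13 turned direction and none of them was past the threshold. Over the whole table the count of 99 became 19 without the filter, 167 with array weights, 7 with the kidney level as a covariate, 241 at an adjusted p under 0.1, and 12 to 97 when 1 array was left out. The 59 higher and 40 lower calls became 78 and 89 with array weights, 26 and 65 without the highest kidney array of each group, and 33 and 64 without arsenic lung 4. With a replicate block the count of 99 became 4, and the Adamts1 call ended (adjusted p 0.0910 in limma). Animals of the same number showed no clear tendency to deviate together (correlations -0.262 to 0.146). Of 5 arsenic lungs, 0 matched the control of their own number best. So few animals cannot settle whether the numbers link them. Adding the kidney level turned Mmp11 (0.024), Timp1 (0.027), Timp3 1419088_at (0.027) and Mmp8 (-0.052). Median centring, which moved the median of all differences by 0.0632, turned Mmp14 1440920_at (0.046), Timp2 1454677_at (0.049) and Timp3 1419088_at (0.013). Quantile normalization turned Mmp14 1440920_at (0.048) and Tfpi2 (0.013). Without the highest kidney array of each group Timp3 1449335_at came to -0.0135. Leaving out 1 array gave -0.21 to 0.012 for Mmp11, -0.050 to 0.026 for Timp2 1454677_at, -0.038 to 0.088 for Timp2 1460287_at, -0.0028 to 0.88 for Mmp8 and -0.15 to 0.11 for Tfpi2. Without the filter the list medians turned for the other metalloproteases (-0.019), the other inhibitors (-0.0082) and the matrix substrates (-0.013). The cause was not tested.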
